A study of Bos taurus with 21 samples.

Results

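X_42271, 16_27381 and 2_2827 are the 3 most abundant entries in a table of small RNAs from bovine milk vesicles. They were chosen by their measured level, as the 3 rows with the highest mean over all 21 libraries, out of 126 rows. Their mean shares of the listed reads over the 21 libraries were 29.5%, 26.7% and 16.5%. These means chose the entries, so they are a description. The row next in rank, 17_28610, lay just outside that choice with a mean share of 10.6%, against 16.5% for 2_2827 just inside it.

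The small RNA came from extracellular vesicles of milk from cows (Bos taurus) in 3 groups: clinical mastitis (7 libraries), subclinical mastitis (7) and healthy (7), each library from a different cow. The labels give no breed, age, pathogen, cell count, batch or date, and they name no treatment. Values are RPM, the reads of an entry per 1000000 reads assigned to the listed entries, and a share in percent is the same number on another scale. The steps of the values imply 2851 to 5511 such reads in clinical, 1785 to 4979 in subclinical and 954 to 9587 in healthy libraries.

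Extracellular vesicles are membrane-bound particles that cells release, and in milk they come from the mammary epithelium and from immune cells, among others. They carry proteins and short RNAs, of which microRNAs (miRNAs), short RNAs that pair with messenger RNAs and lower their output, are the best studied. Mastitis is an inflammation of the udder. Its clinical form changes the milk or the udder visibly, whereas the subclinical form shows no outward signs. Small RNA sequencing tools give a provisional identifier to a sequence that matches no catalogued miRNA, and such an entry may be a miRNA or a fragment of another RNA.

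The 3 entries carry provisional identifiers only, as do 37 of the 126 rows. The table pairs them with no sequence, position or gene, so none is given and no function is assigned to them. No other row held the same values as any of the 3. Of the 126 rows, 16 were above 0 in every library, and all 3 entries were among these 16. Reads of catalogued milk miRNAs were few beside them. Of 16 miRNAs known to be abundant in milk, 10 were listed, and together they took 0% to 0.0363% of the reads in clinical, 0.0603% to 7.72% in subclinical and 0% to 0.524% in healthy libraries. Subclinical 4 held 231 of the 251 such reads in its group. Of 8 miRNAs typical of mammary epithelium, 2 were listed (miR-182 and miR-183), with 0, 5 and 0 reads in clinical, subclinical and healthy libraries, and the other 6 of that list, among them miR-200c and miR-141, were not. Of 9 leukocyte miRNAs, 2 were listed (miR-181a and miR-181b), with 0, 3 and 0 reads, and miR-223 and miR-155 were not. The labelled source therefore could not be checked on its usual miRNAs in most libraries.

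The 3 entries together held most of the listed reads in 19 of the 21 libraries. Their summed share had a lowest value of 74.5%, a median of 87.5% and a highest value of 91.1% in clinical libraries. In subclinical libraries the lowest, median and highest were 45.6%, 71.1% and 80.2%, and in healthy libraries they were 43.6%, 68.0% and 85.2%. The mean was 84.5% ± 6.31 in clinical, 68.1% ± 12.8 in subclinical and 65.3% ± 13.7 in healthy libraries (SD, n = 7 each). Clinical libraries lay high and close together, but the groups overlapped, since healthy 3 stood above clinical 4 and clinical 6. The sum has no test of its own, because the entries were chosen for being abundant.

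Their observed order was the same in every library. X_42271 exceeded 16_27381, and 16_27381 exceeded 2_2827, in 21 of 21 libraries. The exact 95% counting interval of the ratio of X_42271 to 16_27381 covered 1 in clinical 3, 4, 6 and 9, subclinical 1 and 2, and healthy 5. In those libraries the reads do not resolve which of these entries is higher. They were the 3 highest rows in 7 of 7 clinical, 5 of 7 subclinical and 5 of 7 healthy libraries. In the 4 exceptions (subclinical 3, subclinical 6, healthy 2 and healthy 6), 17_28610 exceeded 2_2827. In 3 of these 4 it was the highest row of the library, with 30.3% of the reads in subclinical 3, 24.4% in healthy 2 and 28.5% in healthy 6.

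**Figure D1:**
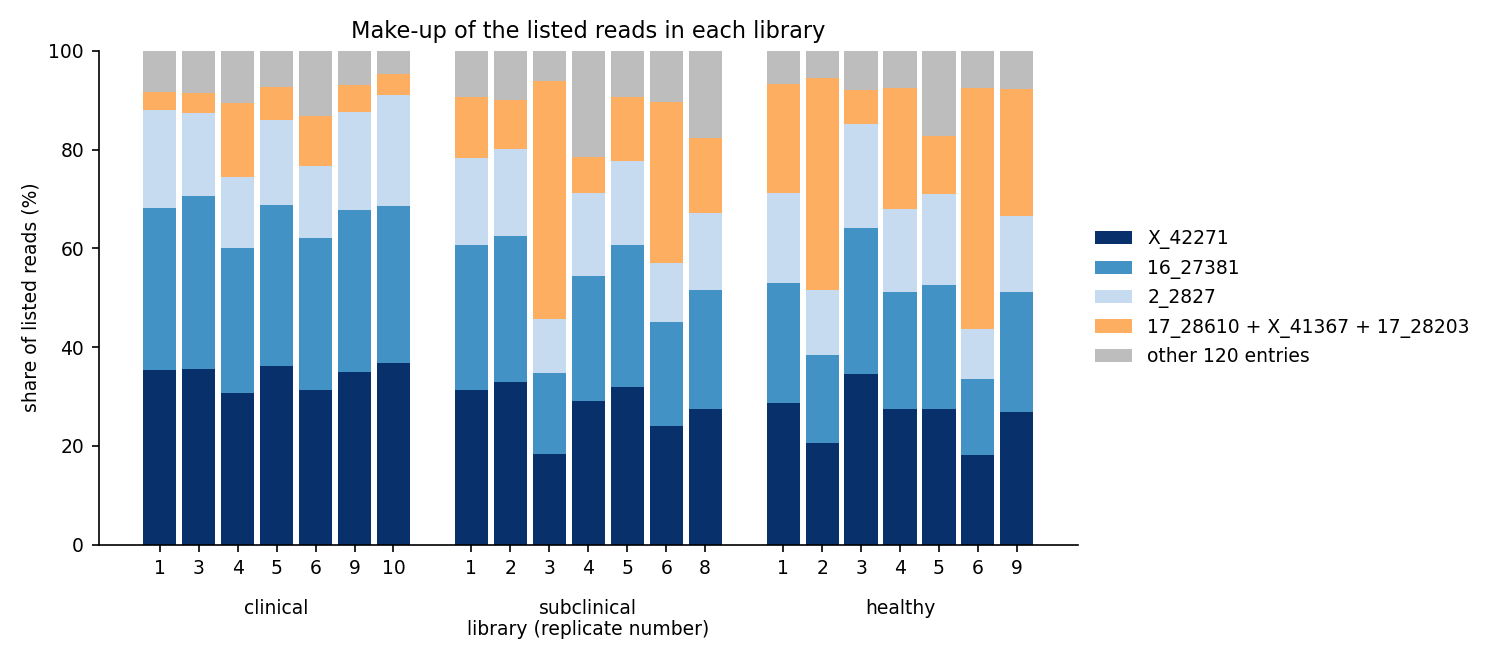
Stacked bars give the share of listed reads (percent, y axis) of X_42271, 16_27381, 2_2827, the 3 rows next in rank together and the other 120 rows, for each library by group. The 3 blue parts sum to 74.5% to 91.1% in clinical, 45.6% to 80.2% in subclinical and 43.6% to 85.2% in healthy libraries, and the orange part is widest where they are narrowest.

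The rows ranked 4 to 6 are 17_28610, X_41367 and 17_28203, which together took 6.99% ± 4.16 of the reads in clinical, 19.8% ± 15.0 in subclinical and 26.1% ± 15.2 in healthy libraries (SD, n = 7 each). Over the 21 libraries their sum ranged 13.6-fold, against 2.09-fold for the sum of the 3 leading entries. Because shares of a library add to a fixed total, a lower share of these rows is a higher share of the rest. The other 120 rows took 8.54% ± 2.76 in clinical, 12.1% ± 5.47 in subclinical and 8.61% ± 3.87 in healthy libraries, with the highest values in subclinical 4 (21.5%), subclinical 8 (17.7%) and healthy 5 (17.2%). The rows ranked 4 to 6 exceeded the other 120 rows in 1 of 7 clinical, 4 of 7 subclinical and 5 of 7 healthy libraries.

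The first question was whether the share of each entry differed between udder health states. Shares of X_42271 and 16_27381 were higher in clinical milk than in both other groups, and of these differences limma's test called 1, that of 16_27381 against healthy milk. The mean share of 2_2827 was 17.9% in clinical, 15.4% in subclinical and 16.2% in healthy libraries.

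X_42271 had a lowest, median and highest share of 30.7%, 35.4% and 36.8% in clinical libraries, 18.3%, 29.0% and 33.0% in subclinical libraries, and 18.1%, 27.4% and 34.6% in healthy libraries. All 7 clinical libraries lay above the healthy mean and 5 of them above every healthy library, while clinical 4 and clinical 6 lay below healthy 3. The log2 difference of clinical from healthy libraries was 0.42 (SE 0.14, 95% interval 0.15 to 0.69), a 1.34-fold higher share. It did not pass in limma's test after Benjamini-Hochberg correction across the 126 rows (adjusted p = 0.0628), and the exact permutation test of this entry alone gave an unadjusted p of 0.00233. Both the size and the call depended on the scaling. The log2 difference was 0.09 with trimmed-mean and 0.66 with median-of-ratios scaling (adjusted p = 0.0169). It was 1.01 with scaling by the geometric mean of the other 13 rows above 0 in all libraries (adjusted p = 0.00096). Those 13 include the rows ranked 4 to 6, which limma called lower in clinical than in healthy milk (log2 differences -1.68, -1.95 and -2.57). Dividing by them raises the difference, so this scaling is no separate support. The difference passed under 5 of 13 alternatives other than left-out libraries, this scaling among them.

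16_27381 had a lowest, median and highest share of 29.4%, 32.7% and 35.0% in clinical libraries, 16.4%, 25.4% and 29.5% in subclinical libraries, and 15.3%, 24.3% and 29.5% in healthy libraries. Of the 7 clinical libraries, 6 lay above every healthy and every subclinical library, and clinical 4, at 29.4%, lay within their range. The log2 difference of clinical from healthy libraries was 0.52 (SE 0.14, 95% interval 0.23 to 0.80), a 1.43-fold higher share, which passed in limma's test (adjusted p = 0.0154). It was thus 1 of 3 entries called, where 3.17% of all 126 rows were called in that comparison. The 3 other called rows were those ranked 4 to 6, all lower in clinical milk. In a separate fit of the rows with a mean of at least 1000 RPM, corrected over those 20, limma called 7 of 20. These included 16_27381 (adjusted p = 0.00563) and X_42271 (0.0173) but not 2_2827. With only 3 entries, no conclusion that they stand apart is drawn from either fit. The call of 16_27381 was lost without healthy 2 (adjusted p = 0.0597) or healthy 6 (0.0626), both of them libraries in which 17_28610 led. It was also lost with trimmed-mean scaling (log2 difference 0.19, adjusted p = 0.507), without limma's trend (adjusted p = 1), by exact permutation adjusted over the 126 rows (0.0857) and once the rows ranked 4 to 6 were left out of the total (log2 difference 0.16, adjusted p = 0.112). Geometric-mean scaling gave a log2 difference of 1.10 (adjusted p = 0.000422), again with the rows ranked 4 to 6 in its base.

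2_2827 had a lowest, median and highest share of 14.4%, 17.2% and 22.5% in clinical libraries, 10.9%, 16.8% and 17.8% in subclinical libraries, and 10.2%, 16.8% and 21.04% in healthy libraries. The 3 groups overlapped over most of their ranges. The log2 difference of clinical from healthy libraries was 0.16 (SE 0.17, 95% interval -0.18 to 0.50) and did not pass (limma adjusted p = 1). Its sign and size depended on the scaling, and it was 0.75 with geometric-mean scaling (adjusted p = 0.0747) and -0.20 once the rows ranked 4 to 6 were left out of the total.

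In subclinical against healthy milk none of the 3 entries was called, as was 0% of the 126 rows by limma (6 rows had an unadjusted p under 0.05, none of them one of the 3). The log2 differences were 0.09 for X_42271 (SE 0.14, 95% interval -0.18 to 0.36), 0.12 for 16_27381 (SE 0.14, -0.16 to 0.41) and -0.06 for 2_2827 (SE 0.17, -0.40 to 0.28). Exact permutation tests of the single entries gave unadjusted p-values of 0.589, 0.481 and 0.719 in that order. The sign of each of these 3 differences changed under at least 1 scaling or left-out library.

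In clinical against subclinical milk none of the 3 was called either, where limma called 3.17% of the rows. The log2 differences were 0.33 for X_42271 (SE 0.14, adjusted p = 0.257), 0.39 for 16_27381 (SE 0.14, adjusted p = 0.178) and 0.22 for 2_2827 (SE 0.17, adjusted p = 0.319). Without adjustment the exact permutation p was 0.00524, 0.00117 and 0.146 in that order. Geometric-mean scaling gave 1.03, 1.09 and 0.93 and called all 3 (limma adjusted p = 0.00044, 0.00025 and 0.0167). Its base includes the rows ranked 4 to 6, which limma called lower in clinical than in subclinical milk (log2 differences -1.27, -1.38 and -2.19). 16_27381 passed under 5 of 13 alternatives, and the difference of 2_2827 was -0.01 once the rows ranked 4 to 6 were left out of the total. All 7 clinical libraries lay above the subclinical mean for X_42271 and 16_27381, and 5 of 7 did for 2_2827. These comparisons share groups, so their results are not separate.

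**Figure D2:**
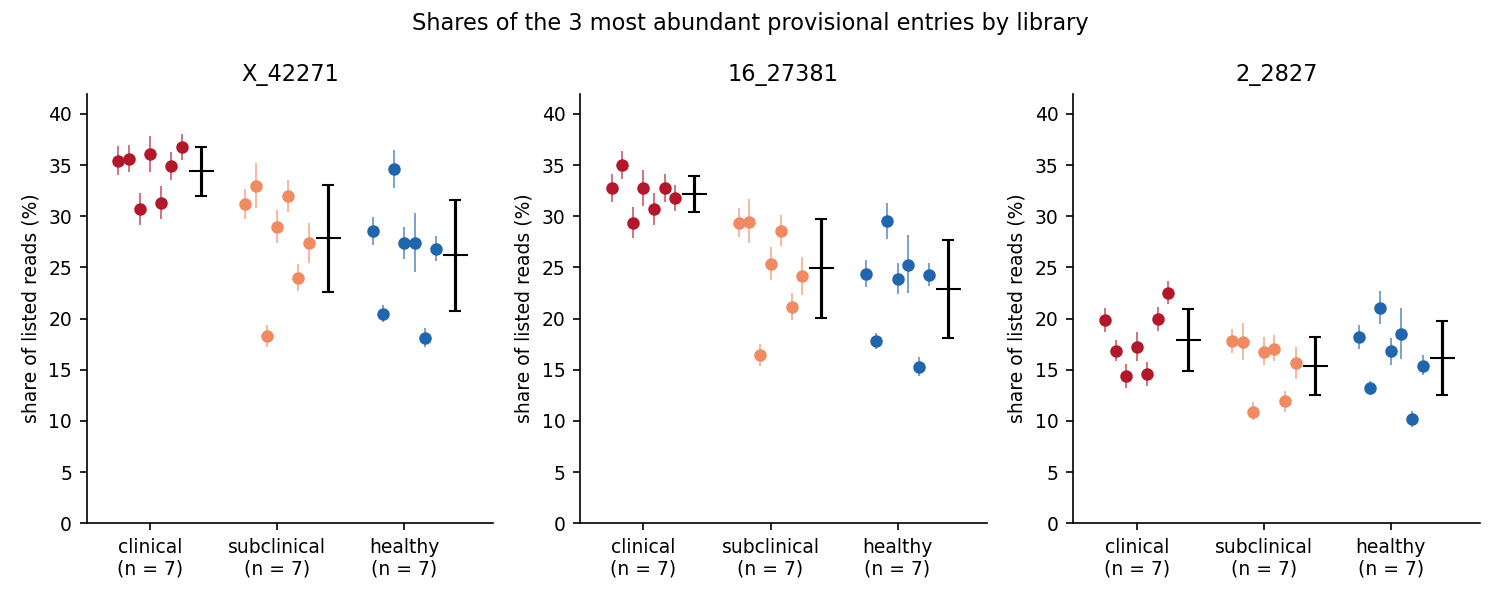
Each point is the share of listed reads (percent, y axis) of 1 entry in 1 library, with its exact 95% counting interval, by group (x axis); the black mark beside each group is its mean with SD (n = 7). Clinical libraries span 30.7% to 36.8% for X_42271 and 29.4% to 35.0% for 16_27381, and the 3 groups overlap for 2_2827.

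The spread between libraries was wider than counting error for all 3 entries. Counting alone would give an SD of 0.749, 0.828 and 0.833 percentage points for the share of X_42271 in clinical, subclinical and healthy libraries. The observed SDs were 2.39, 5.21 and 5.43 points, or 3.19, 6.28 and 6.51 times as large. For 16_27381 the observed SDs were 1.78, 4.85 and 4.80 points in the same order of groups, 2.41, 6.07 and 5.98 times the counting SD. For 2_2827 they were 3.01, 2.83 and 3.62 points, 5.03, 4.22 and 5.10 times the counting SD. Intervals and counting SDs cover counting error only, since reads copied by PCR are not separate molecules.

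The clinical group looked tighter than the other groups for X_42271 and 16_27381, but no difference in spread held up. The mean absolute deviation of the log2 share from the median of its own group was 0.071 in clinical, 0.208 in subclinical and 0.206 in healthy libraries for X_42271. For 16_27381 it was 0.055, 0.223 and 0.212, and for 2_2827 0.191, 0.201 and 0.253. Over 9 comparisons of spread by exact two-sided permutation, in which deviations from a median are only roughly exchangeable, the lowest unadjusted p was 0.0297, for 16_27381 in clinical against subclinical libraries (adjusted p = 0.267). The same test at an unadjusted p under 0.05 picked 6.25% of the 16 entries above 0 in all libraries in that comparison, and 0% in each of the others. That 6.25% was 16_27381 itself, with no other entry. Without subclinical 4 the adjusted p of 16_27381 in clinical against subclinical libraries was 0.0315 by this permutation test.

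The next question was how steady the 3 entries were relative to each other, since a ratio between rows of 1 library does not depend on the total. X_42271 and 16_27381 kept nearly the same ratio in every library. It had a lowest, median and highest value of 1.02, 1.06 and 1.16 in clinical libraries, 1.06, 1.12 and 1.14 in subclinical libraries, and 1.08, 1.15 and 1.19 in healthy libraries. Over all 21 libraries the ratio ranged 1.16-fold, whereas the share of X_42271 ranged 2.03-fold and that of 16_27381 2.29-fold.

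Pooled over groups, that ratio varied no more than counting would make it. Its SD within groups, pooled over the 3 groups on the log2 scale, was 0.051, against 0.069 from counting alone. The chi-square of the reads of the pair over libraries, per degree of freedom, was 1.65 in clinical, 0.301 in subclinical and 0.403 in healthy libraries, where counting noise gives values near 1. Healthy 5, with the fewest reads, had a ratio of 1.08 with a counting interval of 0.906 to 1.30. Its place below all other healthy libraries was thus not detectable at that depth.

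Ratios to 2_2827 were looser. Within groups the log2 ratio of X_42271 to 2_2827 had a pooled SD of 0.122 (0.079 from counting), and that of 16_27381 to 2_2827 had 0.146 (0.080 from counting). The excess lay in the clinical libraries. For 16_27381 with 2_2827 the chi-square per degree of freedom was 12.8 in clinical, 1.16 in subclinical and 1.71 in healthy libraries, and for X_42271 with 2_2827 it was 7.24, 1.26 and 1.48. Whether the groups differ in this spread was not tested.

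Among the 120 pairs of the 16 entries above 0 in all libraries, the pairs formed by the 3 entries ranked 1, 2 and 4 for the smallest pooled SD, and the pair of 17_28610 and X_41367 ranked 3 (0.134). The median over the 120 pairs was 1.18. In 3 of the 120 pairs, X_42271 with 16_27381, 17_28610 with X_41367 and 26_37774 with 2_2859, the pooled SD was below that from counting. Abundant entries have smaller counting error, and the pairs share entries and libraries, so these ranks are a description. The entries most like each of the 3, by the smallest pooled SD of the log2 ratio over 21 libraries, were 12_21573, 4_8133 and 26_37774, the same set for all 3. For X_42271 these SDs were 0.57, 0.60 and 0.63, for 16_27381 0.55, 0.58 and 0.63, and for 2_2827 0.66, 0.67 and 0.62. Of the 39 pairs of a leading entry with another entry, the smallest pooled SD was 0.55. Low rows cannot come near the SDs of abundant ones, because counting alone gives more. With X_42271 and with 16_27381, the SD of 2_2859 was 1.14 times the counting SD for each, against 1.55 and 1.82 times for 2_2827. The mean share of 2_2859 was only 0.179%, and its observed SD was 0.73 with each (0.64 from counting). Counting error of that size can hide a loose ratio, so the smaller multiple does not show closeness.

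**Figure D3:**
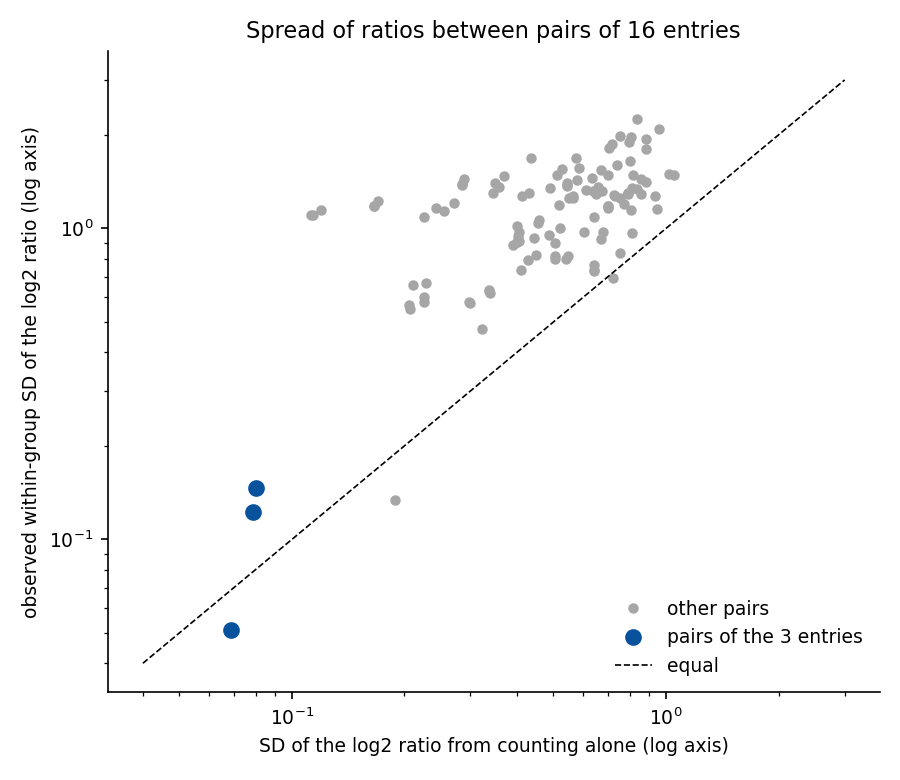
Each point is 1 of the 120 pairs of the 16 entries above 0 in all libraries, with the SD of its log2 ratio expected from counting on the x axis and the observed SD within groups, pooled over groups, on the y axis (both log axes; the dashed line marks equal values). The pair of X_42271 and 16_27381, at 0.069 and 0.051, lies under the line, and both pairs with 2_2827 lie above it.

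Some ratios also differed between groups. Relative to the other leading entries, 2_2827 was lower in clinical and in subclinical milk than in healthy milk, and X_42271 was lower relative to 16_27381 in clinical milk. Of 9 ratio comparisons by exact two-sided permutation, 5 had an adjusted p under 0.05 with adjustment over the 9, in which the smallest unadjusted p that 7 against 7 libraries can give is 0.000583. Within a library each ratio follows from the other ratios, and the comparisons share groups, so the 5 calls are not separate results.

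The ratio of 16_27381 to 2_2827 had a lowest, median and highest value of 1.41, 1.90 and 2.11 in clinical libraries, 1.505, 1.65 and 1.78 in subclinical libraries, and 1.34, 1.40 and 1.58 in healthy libraries. Clinical libraries fell at 1.90 to 2.11 in 4 cows (clinical 3, 4, 5 and 6) and at 1.41 to 1.65 in the other 3 (clinical 1, 9 and 10), and of all 7 only clinical 10 lay within the healthy range. The mean was 1.83 ± 0.27 in clinical, 1.62 ± 0.10 in subclinical and 1.42 ± 0.09 in healthy libraries (SD, n = 7 each). Clinical libraries exceeded healthy ones 1.28-fold (log2 difference 0.35, SE 0.09; exact permutation p = 0.0035, adjusted p = 0.0184), with 6 of 7 above every healthy library. Subclinical libraries exceeded healthy ones 1.14-fold (log2 difference 0.18, SE 0.05; exact permutation p = 0.00408, adjusted p = 0.0184), with 7 of 7 above the healthy mean and 4 above every healthy library. Clinical and subclinical libraries differed by 0.17 on the log2 scale (SE 0.09), which did not pass (exact permutation p = 0.0915, adjusted p = 0.118), though it did without clinical 10 (adjusted p = 0.0195, log2 difference 0.23).

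The ratio of X_42271 to 2_2827 had a lowest, median and highest value of 1.63, 2.10 and 2.15 in clinical libraries, 1.68, 1.76 and 2.02 in subclinical libraries, and 1.48, 1.63 and 1.78 in healthy libraries. All 7 clinical and all 7 subclinical libraries lay above the healthy mean, and both groups overlapped the healthy range. Clinical libraries exceeded healthy ones 1.19-fold (log2 difference 0.26, SE 0.07; exact permutation p = 0.00641, adjusted p = 0.0192). Subclinical libraries exceeded healthy ones 1.11-fold (log2 difference 0.15, SE 0.05; exact permutation p = 0.00991, adjusted p = 0.022), a call that was lost when all 120 pairs were adjusted together (adjusted p = 0.0517). Clinical and subclinical libraries differed by 0.10 (SE 0.07), which did not pass (exact permutation p = 0.178, adjusted p = 0.178).

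The ratio of X_42271 to 16_27381 was 0.934-fold that of healthy libraries in clinical libraries, with means of 1.07 ± 0.05 in clinical and 1.14 ± 0.04 in healthy libraries (SD, n = 7 each). The log2 difference was -0.10 (SE 0.03; exact permutation p = 0.0122, adjusted p = 0.022), and 6 of 7 clinical libraries lay below the healthy mean. Subclinical libraries, at 1.12 ± 0.03 (SD, n = 7), differed from healthy ones by -0.03 (SE 0.02; exact permutation p = 0.166, adjusted p = 0.178). Clinical libraries differed from subclinical ones by -0.07 (SE 0.03; exact permutation p = 0.0455, adjusted p = 0.0682), and this comparison passed without clinical 5 (adjusted p = 0.049), clinical 10 (0.0115) or subclinical 1 (0.0332).

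Ratios that differ between groups were common in the table. Adjusted over all 120 pairs, 33.3% passed in clinical against healthy milk, 17.5% in subclinical against healthy milk and 0% in clinical against subclinical milk. Without adjustment the exact p was under 0.05 for 45% of the pairs in the first comparison, 25.8% in the second and 35.8% in the last. With that adjustment all 3 ratios of the leading entries passed in the first comparison and 1 of 3, 16_27381 to 2_2827, in the second. With 3 ratios and such a background, these counts do not set the 3 entries apart from other rows.

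**Figure D4:**
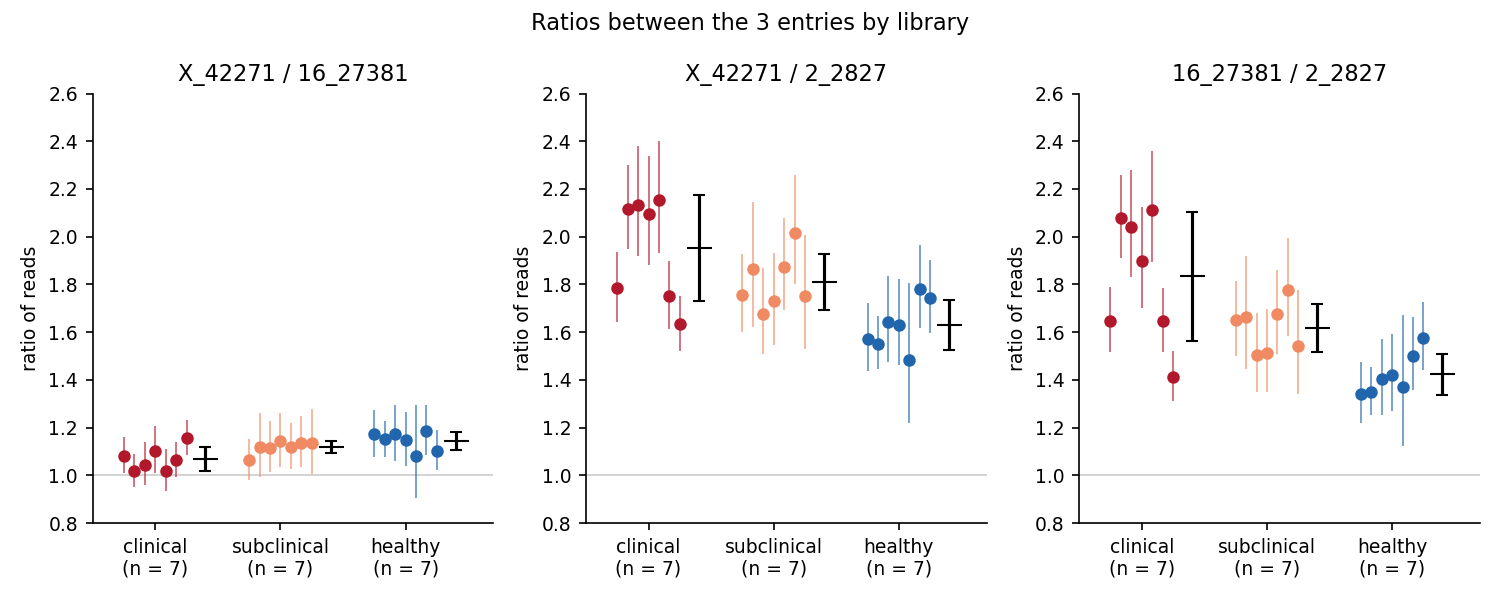
Each point is the ratio of reads of a pair of entries (y axis) in 1 library with its exact 95% counting interval, by group (x axis); the black mark beside each group is its mean with SD (n = 7). X_42271 to 16_27381 spans 1.02 to 1.19 over all libraries, whereas 16_27381 to 2_2827 reaches 2.11 in clinical libraries and stays at 1.34 to 1.58 in healthy ones.

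The last comparison took the rows ranked 4 to 6 out of the total, which was decided on once the values were known. These rows were picked once their wide range was known. In a fixed total their removal narrows the shares of the rest, so the narrower ranges below restate that choice and are no separate result. With all rows in the total, limma called each of these rows lower in clinical than in healthy and in subclinical milk. Group differences and p-values on the new scale depend on that choice too and are a description. Over the 21 libraries the rescaled share ranged 1.25-fold for X_42271, 1.33-fold for 16_27381 and 1.45-fold for 2_2827, against 2.03-fold, 2.29-fold and 2.21-fold before. The rescaled share of X_42271 was 37.0% ± 1.31 in clinical, 34.8% ± 2.14 in subclinical and 35.5% ± 2.07 in healthy libraries (SD, n = 7 each). For 16_27381 it was 34.6% ± 1.003 in clinical, 31.1% ± 2.34 in subclinical and 31.0% ± 1.34 in healthy libraries. For 2_2827 it was 19.2% ± 2.64 in clinical, 19.3% ± 1.25 in subclinical and 21.8% ± 1.33 in healthy libraries.

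On this scale the log2 difference of clinical from healthy libraries was 0.16 for 16_27381 (SE 0.05, limma adjusted p = 0.112), 0.06 for X_42271 (SE 0.05, adjusted p = 0.969) and -0.20 for 2_2827 (SE 0.07, adjusted p = 0.155). None of the 3 was called, where 0.813% of the 123 remaining rows were. Leaving out these rows shifted the log2 difference of each of the 3 entries between clinical and healthy milk by -0.36. In subclinical against healthy milk the differences were 0.00 for 16_27381, -0.03 for X_42271 and -0.18 for 2_2827, and none was called (0.813% of rows were). In clinical against subclinical milk 16_27381 was higher by 0.15 on the log2 scale (SE 0.05, limma adjusted p = 0.0463), 1 of 3 entries where 4.88% of the 123 rows were called. As the total was chosen from these same data, that call is no separate support. Subclinical 4, subclinical 8 and healthy 5, in which the other 120 rows took the most, had the 3 lowest rescaled sums of the leading entries, at 76.7%, 79.1% and 80.5%.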

How the data were processed

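The deposited table, named TPM by the authors, holds 126 rows and 21 library columns. Since every column adds up to 1000000 and its values are multiples of 1 smallest step, the deposited values are RPM, scaled by the authors to the listed reads. With that step, 100% of the 629 nonzero values were whole reads to a tolerance of 0.01. The implied reads are those assigned to listed rows, not library depth. Bowtie, edgeR and the build ARS-UCD1.2 are named in the submitters' processing notes. No source used here gives the trimming, the miRNA database or the prediction tool. The clinical columns were matched to sample titles by replicate number.

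Shares were tested with limma-trend (limma 3.58.1, R 4.3.3) after adding 1 RPM and taking log2, in 1 fit of the 21 libraries, two-sided. Correction ran across the 126 rows, whose means all reached 1 RPM, and an adjusted p under 0.05 was a call. Ratios and spread used exact permutation over 3432 regroupings (Python 3.11.15, NumPy 2.4.6, SciPy 1.17.1, pandas 2.3.3). Intervals are Clopper-Pearson. Figures were drawn in matplotlib 3.10.9. The tests were tried on simulated data. The entries and lists were chosen with earlier results of these data known. Named rows were the 3 entries, the row next in rank and the 3 rows most similar to each entry, and the rows ranked 5 and 6 were added after their values were seen. Over the 63 pairs of libraries within groups, the lowest chi-square per degree of freedom was 1.85, where counting noise gives values near 1. Alternatives covered scaling, pseudocount, filter, fit, trend, replicate block and each library left out.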

Additional observations from a re-analysis of the deposited data

Results flagged for a closer look

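The ratio of X_42271 to 16_27381 in subclinical 1 was 1.06, apart from the other 6 subclinical libraries, which lay at 1.12 to 1.14. Its gap to the nearest of them was 0.65 of the range of the group, above the Dixon 95% value of 0.568 for 7 samples. Its counting interval, 0.981 to 1.15, covers the other values. Of 21 groups of values examined (3 shares, their sum and 3 ratios in 3 groups), this was the 1 so marked, and chance marks about 1 in 20.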

How the results depend on the processing

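Values here are adjusted p unless named otherwise, and the cause of each change was not tested. For 16_27381 in clinical against healthy milk, the call was lost with trimmed-mean scaling (0.507), without trend (1), with the replicate block (0.237), by exact permutation per row (0.0857) and after leaving the rows ranked 4 to 6 out of the total (0.112), and left-out libraries gave 0.00196 to 0.0626. X_42271 passed in that comparison with median-of-ratios scaling (0.0169), scaling by the geometric mean of the other 13 rows above 0 in all libraries (0.00096), a minimum mean of 1000 RPM (0.0173), log2 implied reads as a covariate (0.018) and 2 groups per fit (0.0444), and left-out libraries gave 0.0118 to 0.242. It passed without healthy 3 (0.0118) or subclinical 3 (0.0151). In clinical against subclinical milk 16_27381 passed with median-of-ratios (0.0434) and geometric-mean scaling (0.00025), the minimum of 1000 RPM (0.0415), the covariate (0.0174) and without the rows ranked 4 to 6 (0.0463). Geometric-mean scaling, whose base includes the rows ranked 4 to 6, also called X_42271 (0.00044) and 2_2827 (0.0167) there.

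Differences that had not passed changed sign for X_42271 in subclinical against healthy milk with trimmed-mean (0.524) and geometric-mean scaling (1) and without the rows ranked 4 to 6 (0.645), and for 16_27381 with trimmed-mean scaling (0.7996). For 2_2827 they did so in clinical against healthy milk with trimmed-mean scaling (0.864) and without those rows (0.155), in clinical against subclinical milk without those rows (0.915), and in subclinical against healthy milk without healthy 3 or subclinical 3 (left-out libraries, 0.45 to 1). Median-of-ratios, trimmed-mean (healthy 2 as its base) and geometric-mean scaling shifted clinical against healthy log2 differences by 0.24, -0.33 and 0.59.

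Of the ratios, X_42271 to 2_2827 in subclinical against healthy milk gave 0.0517 when adjusted over all 120 pairs. Left-out libraries gave 0.0115 to 0.131 for X_42271 to 16_27381 and 0.0195 to 0.19 for 16_27381 to 2_2827 in clinical against subclinical milk. The 5 ratio calls held without each library in turn.

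No spread comparison passed except 16_27381 in clinical against subclinical libraries without subclinical 4 (left-out libraries, 0.0315 to 0.472). Signs of uncalled spread differences changed for 2_2827 in clinical against subclinical libraries on the percent scale (0.874), for X_42271 and 16_27381 in subclinical against healthy libraries about the group mean (0.869 each), and for 2_2827 without the rows ranked 4 to 6 (0.428 in both clinical comparisons, 0.966 in subclinical against healthy). Left-out libraries gave 0.66 to 0.984 and 0.641 to 0.984 for 2_2827 in clinical against healthy and clinical against subclinical libraries. In subclinical against healthy libraries they gave 0.64 to 0.959 for 2_2827 and 0.641 to 0.975 for X_42271 and for 16_27381.

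The number of rows called was 0 to 7 (4 in the fit as reported) in clinical against healthy, 0 to 4 (0) in subclinical against healthy and 1 to 7 (4) in clinical against subclinical milk over all alternatives. Correlations between the deviations of same-numbered libraries ran from -0.77 to 0.65 over the 3 comparisons. They were not tested, so they cannot decide whether such libraries share more than a number. The replicate block called 0 rows in clinical against healthy milk.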
